A study of Mus musculus with 2 samples.

Results

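Antioxidant defence genes were compared between macrophages in which Tipe1 had been deleted and control macrophages of the mouse. The set was a list of 32 symbols chosen by function: the transcription factor NRF2 (Nfe2l2) with its regulators, the enzymes that make and use glutathione, the peroxiredoxin and thioredoxin systems, the superoxide dismutases, catalase, and the quinone and NADPH enzymes Nqo1 and Me1. Genes of haem and iron handling were not part of the list, which was drawn up with earlier results of these data known. All 32 symbols were found among the 46095 genes of the count table.

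The cells were bone marrow-derived macrophages of C57BL/6 mice, grown from femur and tibia marrow for 5 days with 100 ng/ml M-CSF, the growth factor that turns marrow progenitors into macrophages. The KO library has the genotype label TIPE1-/-, and the series' design text gives its mice as LyzM-Cre; Tipe1f/f, in which Cre is made from the lysozyme locus of myeloid cells, so other cells of a culture keep the gene. The WT library has the genotype label wild type, and the design text gives its mice as Tipe1f/f without Cre, so both groups carried floxed alleles as described there. Each genotype had 1 library, called WT and KO below, and no age, sex or pooling of mice is named in the labels. The series title names macrophage polarization as the subject.

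NRF2 is held in the cytoplasm and sent for degradation by KEAP1 until oxidants or electrophiles modify KEAP1. It then enters the nucleus, pairs with small MAF proteins and binds antioxidant response elements near genes for glutathione synthesis, thioredoxin reduction and quinone detoxification. Macrophages make superoxide and peroxides when they are activated, and these enzymes limit the damage to the cell itself. Several members answer to other factors as well, and Sod2 is a well-known target of NF-kB.

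The libraries held 11782664 counted reads (WT) and 15815956 (KO), and 19391 and 19282 genes had at least 1 read. Levels are given as reads scaled to a TMM library size of 1000000 (CPM). A ratio is the KO level over the WT level, and the interval in parentheses is the exact Clopper-Pearson 95% interval for the split of the gene's reads, which covers counting error only. Where 2 levels or read numbers stand side by side, the WT library comes first. The filter kept the 12495 genes that reached 1 CPM as the average of the libraries. To be counted as higher, or as lower, in the KO library a gene needed a ratio of 1.5-fold or beyond and an interval without 1. Without replicates, the spread between cultures is unknown for every difference below and no p-value was computed. Tnfaip8l1, which encodes TIPE1, averaged 0.967 CPM and so was under the filter. It had 21 reads in WT and 3 in KO, a ratio of 0.112 (0.0214 to 0.375), and it is not known here which exons were removed. Of 10 macrophage markers 9 were above the filter, of which 7 were neither, such as Csf1r at 2646 and 2414 CPM and Cd68 at 1493 and 1589 CPM. Adgre1 was higher at 1064 and 2554 CPM, and Lyz2, the locus that carries Cre in the KO mice, was lower at 14958 and 8028 CPM. Aif1 was listed at 0 in both. Of 16 fibroblast and stromal markers 15 were above the filter and 14 of them were lower in the KO library. Their summed level was 2089 CPM in WT and 187 CPM in KO, 11.2-fold lower (10.7 to 11.6), with Thy1 at 3.23 and 3.11 CPM and Tagln listed at 0 in both. Of the markers of other cells above the filter, 5 of 5 B cell, 4 of 7 monocyte and 4 of 11 neutrophil genes were also lower, and 0 were higher. In such bulk libraries fewer cells of a type and less RNA per cell cannot be told apart.

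The antioxidant response element has the core TGACNNNGC, and it was looked for on both strands of the RefSeq promoter windows (GRCm38.p6, from 250 bases before the start to 50 after it), which 27 of the 32 members had. The core was in 8 of the 35 windows of members, or 22.9%, and in 12.4% of all 32851 windows. It lay in windows of Nfe2l2, Srxn1, Gclm, Prdx1, Mgst1, Me1, Txnrd1 and Sod1. A variant with G in the 4th place, TGAGNNNGC, was added after the Srxn1 window had been read, and it was in 3 windows of members (8.57%) and in 17.6% of all windows. 4 matches read TGACTCAGC or TGAGTCAGC, which contain the AP-1 motif (TGACTCA or TGAGTCA), so the letters of the 2 motifs overlap there. These 4 are shown because they are the members' most alike sites and belong to genes with different ratios. Each is written 5′ to 3′ in the direction in which the core reads TGA, with the core in capitals and 10 bases on each side.
Prdx1, chr4:116685466-116685474, minus strand: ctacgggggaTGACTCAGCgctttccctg
Me1, chr9:86695912-86695920, minus strand: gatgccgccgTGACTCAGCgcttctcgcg
Srxn1, chr2:152105479-152105487, plus strand: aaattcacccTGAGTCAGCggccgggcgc
Gstp1, chr19:4037978-4037986, minus strand: tccaacgtgtTGAGTCAGCatccggggcg

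Prdx1 and Srxn1 were among the members with the highest ratios, as described below, whereas Me1 and Gstp1 had ratios under 1 with intervals that held 1. Neither Me1 nor Gstp1 was thus shown to be lower, and the differing ratios were part of why these 4 sites were shown. Of the 5 members counted as higher below, 3 had TGACNNNGC in a window, and of the other 22 with a window 5 did. Of the 9085 genes above the filter with a window, 17.4% had it. The 5 had 7 windows between them, and a link between the core and the ratio was not tested. A match describes the sequence only, and no binding was measured.

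The 250 bases before the start are printed for Sod2, Srxn1 and Prdx1, the 3 members with the highest ratios, on the plus strand, with matches of either core in capitals as they read on that strand.
Sod2, chr17:13007589-13007838: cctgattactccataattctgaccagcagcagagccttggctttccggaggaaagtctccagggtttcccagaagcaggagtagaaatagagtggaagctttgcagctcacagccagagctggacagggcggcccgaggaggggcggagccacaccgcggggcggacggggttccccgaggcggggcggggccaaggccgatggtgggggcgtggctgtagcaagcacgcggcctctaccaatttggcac
Srxn1, chr2:152105274-152105523: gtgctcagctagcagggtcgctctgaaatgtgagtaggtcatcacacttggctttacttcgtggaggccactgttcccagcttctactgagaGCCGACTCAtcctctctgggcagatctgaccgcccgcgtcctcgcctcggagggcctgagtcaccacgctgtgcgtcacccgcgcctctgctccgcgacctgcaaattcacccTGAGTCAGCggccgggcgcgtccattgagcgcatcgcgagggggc
Prdx1, chr4:116685349-116685598: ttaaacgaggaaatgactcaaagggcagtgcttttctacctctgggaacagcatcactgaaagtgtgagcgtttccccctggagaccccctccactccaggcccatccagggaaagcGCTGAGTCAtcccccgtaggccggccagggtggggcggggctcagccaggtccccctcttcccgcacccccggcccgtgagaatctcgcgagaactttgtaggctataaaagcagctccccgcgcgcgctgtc

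The Sod2 window held neither core. The Srxn1 window held 2 matches of the variant in this stretch, and its TGACNNNGC match lay after the start and is not shown. The Prdx1 stretch held 1 match, 133 bases before the start, and a match of the variant lay after the start and is not shown. All 3 stretches were rich in G and C, at 63.6%, 63.2% and 61.6% for Sod2, Srxn1 and Prdx1.

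Most antioxidant genes, 24 of the 31 above the filter, were counted as neither higher nor lower, as were 10783 of all 12495 genes. The highest ratio was that of the mitochondrial dismutase gene Sod2 and the lowest that of the secreted dismutase gene Sod3. Of the 32 members 31 passed the filter on low levels. By the rule above 5 were higher (Sod2, Srxn1, Prdx1, Txnrd1 and Gss), 2 were lower (Gpx3 and Sod3) and 24 were neither. The 5 are 16.1% of the 31, and 6.47% of all 12495 genes above the same filter were counted as higher. The 2 are 6.45%, against 7.23% of all such genes counted as lower, so the share of lower members was near the background at this filter. Because the list was drawn up with earlier results of these data known, these shares are a description and make no test of the set. The median log2 ratio of the members, after 0.5 CPM was added to both levels, was 0.12, against 0.01 for all such genes. At a 2-fold limit 1 member was higher (Sod2) and 1 lower (Sod3), while 2.59% of all such genes were higher and 4.78% lower. Among genes averaging 10 CPM or more, at the 1.5-fold limit, 4 of 26 members were higher and 2 lower, against 4.92% and 2.66% of all genes. With that filter both shares of members were above those of all genes.

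**Figure D1:**
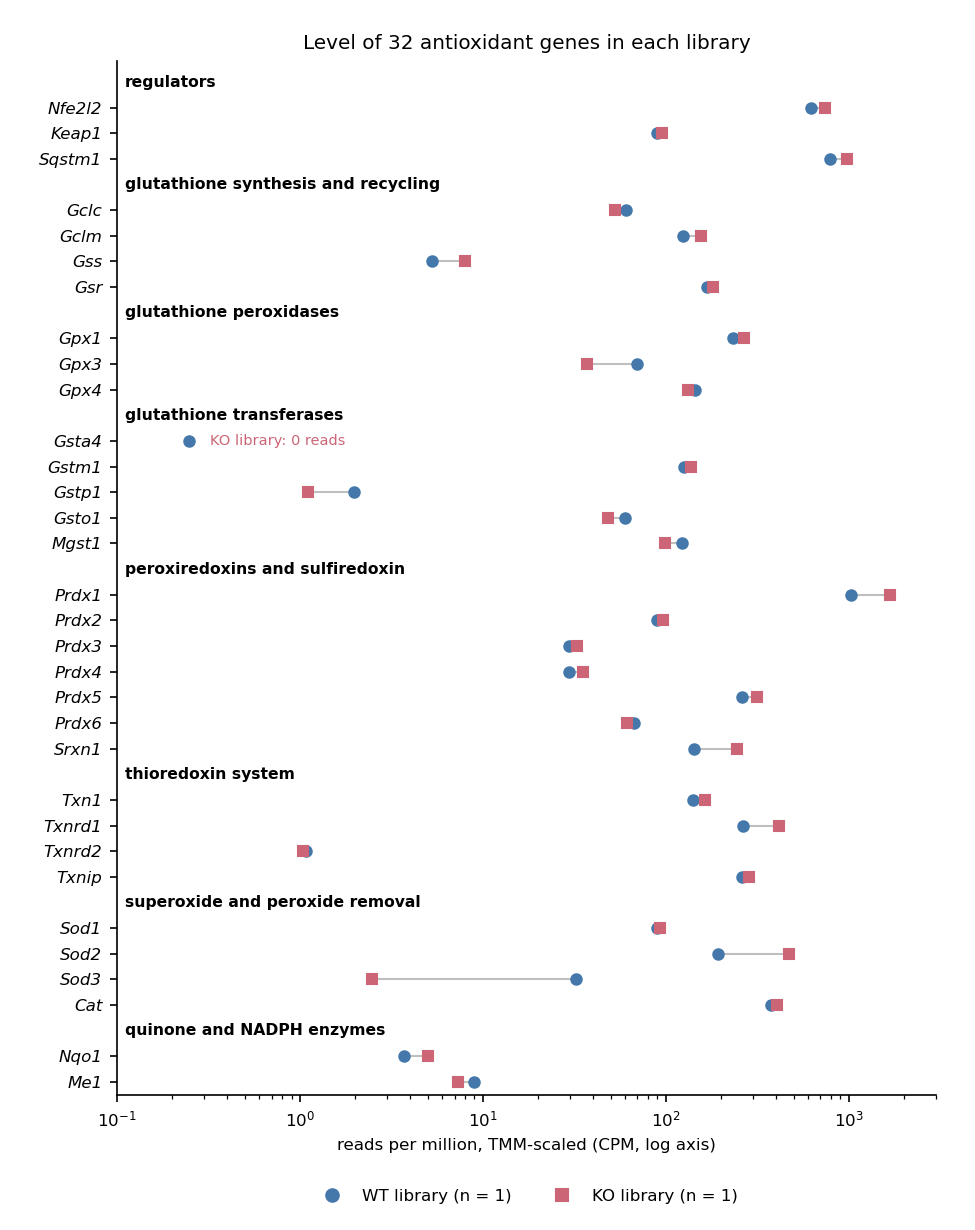
Level of each of the 32 members in the WT library (circles) and the KO library (squares), 1 library per genotype, in CPM on a log axis and grouped by role. Sod2, Srxn1, Prdx1 and Txnrd1 sit further right in the KO library, and Sod3 stands at 32.1 CPM in WT and 2.46 CPM in KO. CPM is not divided by gene length, so rows are to be read across and not against each other.

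Per kilobase of exon (GENCODE vM21, union of all exons), Prdx1 was the highest member in both libraries at 337 and 554 CPM per kilobase in the WT and KO libraries. Sqstm1 (234 and 293), Nfe2l2 (164 and 195) and Gpx1 (162 and 185 CPM per kilobase) followed in the same order in both. At the low end Nqo1 had 2.40 and 3.21, Me1 2.32 and 1.90 and Gss 0.896 and 1.36 CPM per kilobase. The union of exons can be longer than the transcripts these cells make, so the order per length is approximate. Sod2 moved from the 21st to the 15th place of 32 in that order, and Gpx3 from the 14th to the 21st.

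The regulators differed little between the libraries. Nfe2l2, the gene of NRF2 itself, had 624 CPM in WT and 741 in KO, a ratio of 1.19 (1.15 to 1.22). Keap1, the NRF2 inhibitor, stood at 89.3 and 94.8 CPM, a ratio of 1.06 with an interval that held 1 (0.980 to 1.15). Sqstm1 encodes p62, an autophagy receptor that binds KEAP1 and is also an NRF2 target, and it had 786 and 983 CPM, a ratio of 1.251 (1.22 to 1.28). For Nfe2l2 and Sqstm1 the interval lay above 1, but both ratios were short of 1.5-fold. NRF2 is controlled mainly through its protein, which RNA counts do not measure.

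Of the 4 genes that make and recycle glutathione 1 was counted as higher, and the subunits of the first enzyme differed in direction. Gclc, the catalytic subunit of glutamate-cysteine ligase, which sets the rate of glutathione synthesis, had 60.4 CPM in WT and 52.6 in KO, a ratio of 0.871 (0.787 to 0.964). Gclm, the modifier subunit of the same enzyme, had 124 and 156 CPM, a ratio of 1.26 (1.18 to 1.35). The intervals of the subunits did not overlap, and each lay on its own side of 1. Gclm made up 67.2% (65.2 to 69.2) of the reads of both subunits in the WT library and 74.8% (73.3 to 76.3) in the KO library, a share that does not depend on the scaling between libraries. Gss, glutathione synthetase, had 64 and 124 reads, or 5.30 and 8.04 CPM, a ratio of 1.52 (1.11 to 2.08). The Gss ratio was 1.44 with total counts in place of TMM scaling, under the limit. Gss lies on chromosome 2 (155563181 to 155592810) and shares 6.68% of its exon bases with Acss2 on the opposite strand, which had 54 and 97 reads, and the strand setting of the counts is not given. Gsr, which reduces oxidized glutathione, was close to level at 168 and 180 CPM, a ratio of 1.07 (1.01 to 1.14).

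Of the 3 glutathione peroxidases among the members only the secreted one was counted as different. Gpx3, the plasma and extracellular peroxidase (chromosome 11, 54902854 to 54910387), had 69.9 CPM in WT and 37.0 in KO, 1.89-fold lower (1.70 to 2.10). Gpx1, the abundant cytosolic enzyme, had 233 and 266 CPM, a ratio of 1.14 (1.09 to 1.20). Gpx4, which reduces lipid hydroperoxides and guards against ferroptosis, had 145 and 132 CPM, a ratio of 0.906 (0.850 to 0.966). Gpx3 accounted for 15.6% (14.6 to 16.6) of the reads of these 3 genes in the WT library and 8.51% (7.85 to 9.20) in the KO library. Their summed level was nearly the same, at 448 and 435 CPM, a ratio of 0.970 (0.936 to 1.01).

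The glutathione transferases attach glutathione to reactive compounds. None of those among the members was counted in either direction, and 3 of the 4 above the filter had a ratio under 1. Mgst1, a membrane-bound transferase, had 123 CPM in WT and 98.7 in KO, a ratio of 0.8002 (0.745 to 0.860). Gsto1, of the omega class, had 59.9 and 48.6 CPM, a ratio of 0.811 (0.731 to 0.899). Both intervals lay below 1. Gstm1, of the mu class, was on the other side at 127 and 137 CPM, a ratio of 1.08 (1.01 to 1.16). Gstp1 had 24 and 17 reads, a ratio of 0.554 (0.280 to 1.08), so a difference was not detectable at its read number. Its near-identical neighbour Gstp2 had 2 and 0 reads, and reads that match both copies could have been left out of the count. Gsta4 had 3 and 0 reads, too few for a ratio, and it was the 1 member under the filter.

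Prdx1 and its repair enzyme Srxn1 were both higher in the KO library. Prdx1, a cytosolic peroxiredoxin that reduces hydrogen peroxide through a reactive cysteine (chromosome 4, 116685599 to 116700000), had 1027 CPM in WT and 1684 in KO, a ratio of 1.64 (1.61 to 1.68). Srxn1, sulfiredoxin, restores peroxiredoxins that have been over-oxidized (chromosome 2, 152105524 to 152111376), and it had 142 and 245 CPM, a ratio of 1.72 (1.62 to 1.82). The intervals of the pair overlap, so their order is not resolved.

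The other peroxiredoxins stayed within 1.5-fold. Prdx2, the other abundant cytosolic form of the same class, had 89.2 and 97.0 CPM, a ratio of 1.09 (1.005 to 1.18). Prdx3, in mitochondria, had 29.7 and 32.5 CPM, a ratio of 1.09 (0.954 to 1.26). Prdx4, in the endoplasmic reticulum, had 29.6 and 35.5 CPM, a ratio of 1.20 (1.04 to 1.37). Prdx5 had 260 and 314 CPM, a ratio of 1.21 (1.15 to 1.26). Prdx6, which uses glutathione in place of thioredoxin, had 67.1 and 61.4 CPM, a ratio of 0.915 (0.832 to 1.01). The Prdx1 interval lay above those of all 5 other peroxiredoxins. Prdx1 made up 68.3% (67.6 to 69.0) of the reads of the 6 peroxiredoxins in the WT library and 75.7% (75.3 to 76.2) in the KO library. The summed level of the family was 1502 and 2225 CPM, and most of that difference was Prdx1.

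**Figure D2:**
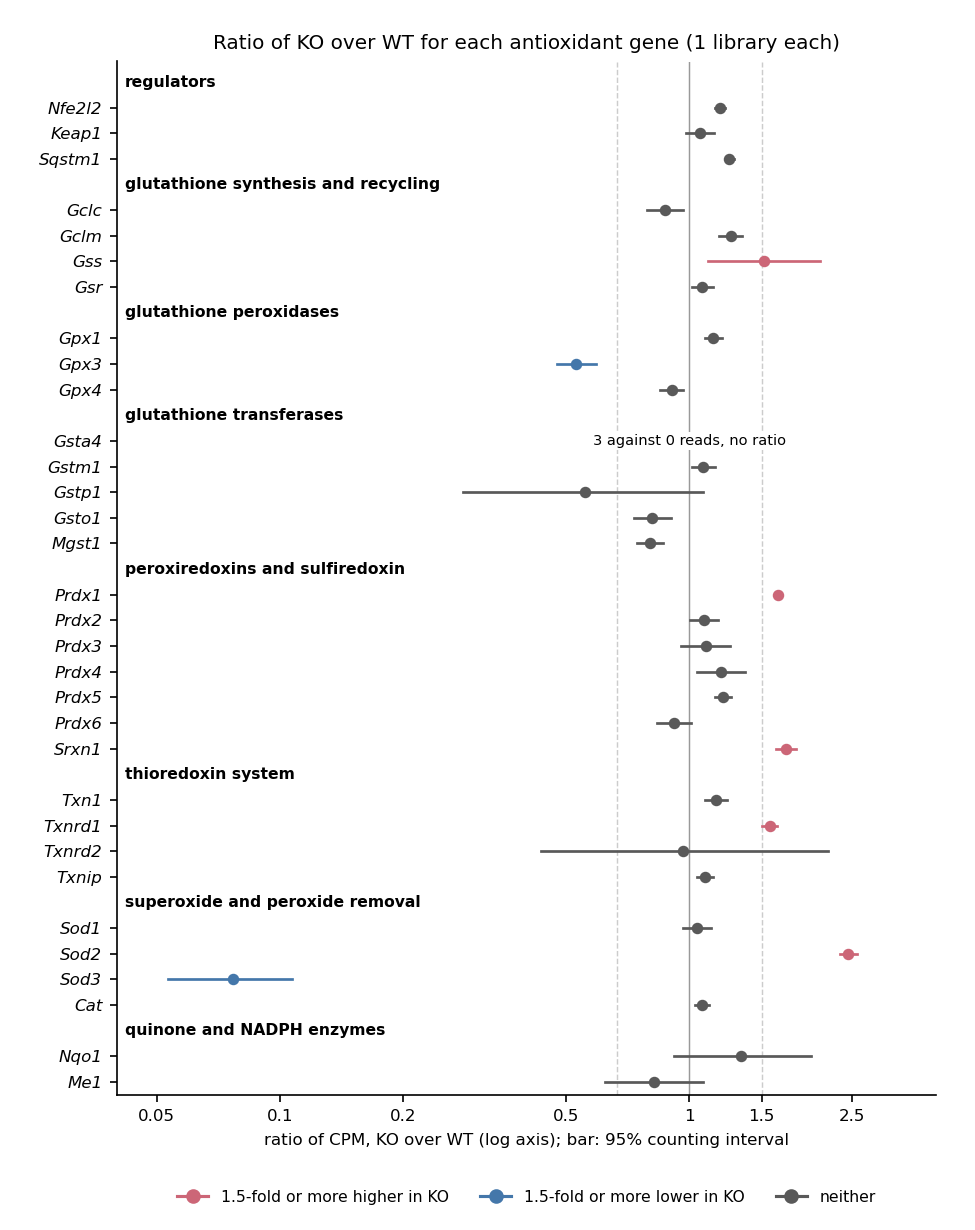
Ratio of the KO level over the WT level for each member on a log axis, with bars for the 95% counting interval and dashed lines at 1.5-fold in each direction. The 5 higher members lie to the right of the upper line, with the Gss bar reaching back to 1.11, and Sod3 stands alone at 0.0767.

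In the thioredoxin system the cytosolic reductase was the member that differed. Txnrd1, the selenoenzyme that passes electrons from NADPH to thioredoxin (chromosome 10, 82833951 to 82897724), had 264 CPM in WT and 415 in KO, a ratio of 1.57 (1.503 to 1.64). With total counts in place of TMM scaling the ratio was 1.49, under the limit. Txn1, thioredoxin, had 140 and 163 CPM, a ratio of 1.16 (1.09 to 1.23). Txnip, which binds and inhibits thioredoxin, had 260 and 284 CPM, a ratio of 1.09 (1.04 to 1.14). Txnrd2, the mitochondrial reductase, had 13 and 16 reads, a ratio of 0.963 (0.435 to 2.18), so a difference was not detectable at this depth. How its reads were counted is not given, so its level is uncertain. Srxn1, Prdx1 and Txnrd1 thus had ratios between 1.57 and 1.72, and they are consecutive in the order of all members after Sod2, each overlapping the next.

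The superoxide dismutases, which turn superoxide into hydrogen peroxide in separate compartments, gave the highest and the lowest ratio of all members. Sod2, the mitochondrial enzyme (chromosome 17, 13007839 to 13018119), had 192 CPM in WT and 469 in KO, a ratio of 2.44 (2.33 to 2.56), and 1.09% of the genes above the filter had a higher log2 ratio. Its interval lay above those of all other members with a ratio, of which the Txnrd2 interval reached highest, to 2.18. Sod1, the cytosolic copper and zinc enzyme, had 89.2 and 93.1 CPM, a ratio of 1.04 (0.964 to 1.13), or 0.994 with total counts. Sod3, the secreted enzyme that binds to matrix (chromosome 5, 52363804 to 52369738), had 388 reads in WT and 38 in KO, 32.1 and 2.46 CPM, 13.04-fold lower (9.33 to 18.7). Sod2 made up 61.3% (59.7 to 62.8) of the reads of the 3 genes in the WT library and 83.1% (82.2 to 83.8) in the KO library, while Sod3 made up 10.3% (9.30 to 11.3) in WT and 0.436% (0.309 to 0.599) in KO. Catalase (Cat), which breaks down hydrogen peroxide in peroxisomes, had 376 and 403 CPM, a ratio of 1.07 (1.03 to 1.12).

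**Figure D3:**
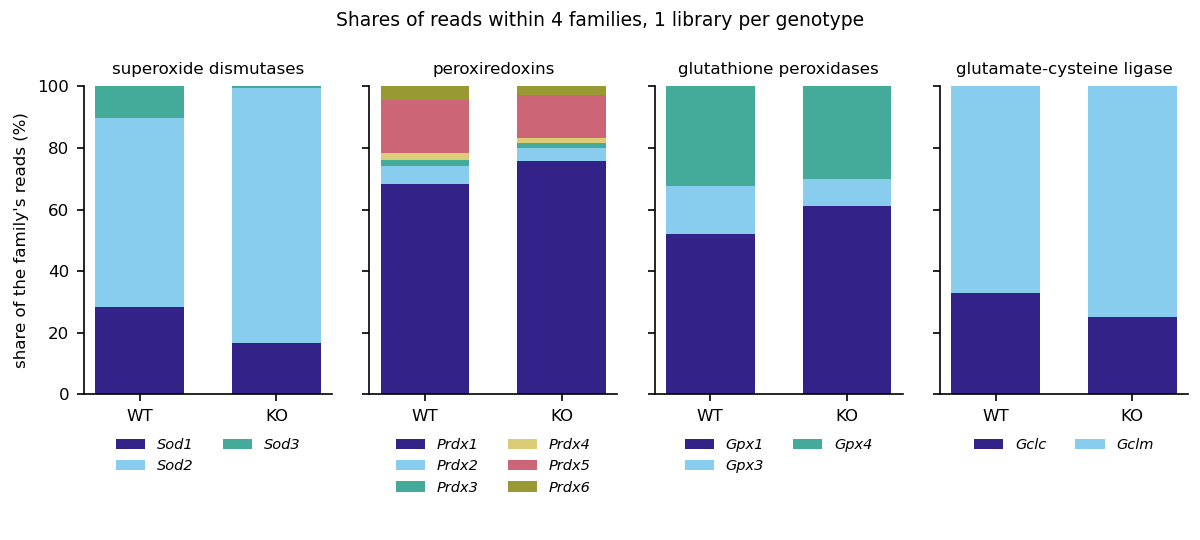
Share of reads that each gene takes within its family, in percent, for the WT and the KO library (1 library each, stacked bars from 0 to 100). The Sod2 part is 61.3% in WT and 83.1% in KO and the Prdx1 part 68.3% and 75.7%, while the Gpx3 part is 15.6% and 8.51%.

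Genes of stromal cells, B cells and monocytes were lower in the KO library along with Sod3. Its 13.04-fold difference stood beside the 11.2-fold difference of the summed stromal markers, whose members above the filter ranged from 3.23 to 714 CPM in the WT library and from 1.23 to 58.9 CPM in the KO library. Gpx3, also secreted, had a smaller difference of 1.89-fold. Gpx8, a peroxidase of the endoplasmic reticulum, was in a list of 76 other NRF2 pathway and related redox genes. It had 49 and 3 reads, a ratio of 0.0479 (0.00956 to 0.149). Msrb3, a methionine sulfoxide reductase of the same list, had 78 and 4 reads, a ratio of 0.0401 (0.0107 to 0.107). These 2 genes were picked out after their values were seen. The B cell markers summed to 14.7 and 2.59 CPM and the monocyte markers to 1221 and 475 CPM. The part of any of these cell types in the 4 ratios was not tested.

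Nqo1 and Me1, both widely used as NRF2 target genes, were at low levels and did not differ beyond counting error. Nqo1, which reduces quinones, had 45 and 77 reads, or 3.73 and 4.99 CPM, a ratio of 1.34 (0.916 to 1.98). Me1, the malic enzyme that makes NADPH in the cytosol, had 108 and 113 reads, a ratio of 0.819 (0.624 to 1.08).

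Taking the members by size of ratio, 17 had an interval above 1, 6 below 1 and 8 holding 1, and over all genes that passed the filter 22.8% had an interval above 1 and 18.4% below 1. Members had more reads than most genes, with a median of 123 CPM in WT against 23.3 CPM over all such genes, and more reads give narrower intervals. Of the 31 members 20 lay within 1.25-fold in either direction. The share of all genes within 1.25-fold was not computed, so this count has no background beside it. Intervals of neighbours in that order overlapped everywhere except after Sod2 at the top and before Sod3 at the bottom. The summed level of all 32 members was 5629 CPM in WT and 7247 CPM in KO.

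Few genes of the list of other NRF2 pathway and related redox genes, called other NRF2 pathway genes here, were counted in either direction. Whether NRF2 regulates each listed gene was not checked. Of the 76 listed, which cover small MAF partners, cystine import, the pentose phosphate path, other transferases and repair enzymes, 64 were above the filter, and 5 were higher, 3 lower and 56 neither. The 5 are 7.81% and the 3 are 4.69% of the 64, near the background shares of 6.47% and 7.23%, and the median log2 ratio was 0.09. Glrx, glutaredoxin, had 55.4 and 103 CPM, a ratio of 1.85 (1.69 to 2.03). Slc7a11, which imports cystine for glutathione synthesis, had 59.4 and 106 CPM, a ratio of 1.79 (1.64 to 1.95). Nfe2l1, the NRF2 relative that controls proteasome genes, had 231 and 355 CPM, a ratio of 1.53 (1.47 to 1.61), which was 1.46 with total counts. Gstm4, a mu-class transferase, had 60 and 121 reads, a ratio of 1.58 (1.15 to 2.19), and Glrx5, a mitochondrial glutaredoxin of iron-sulfur cluster assembly, had 21.0 and 15.2 CPM, a ratio of 0.721 (0.601 to 0.865). The fifth higher gene was Ggct with 16 and 41 reads, and the 3 lower ones were Gpx8, Msrb3 and Oplah, the last with 71 and 48 reads; these were named after their values were seen.

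Several genes of the phagocyte NADPH oxidase, which makes superoxide, were higher in the KO library too. Of 19 listed oxidant source genes 12 were above the filter, with 3 higher, 1 lower and 8 neither, and a median log2 ratio of 0.10. The 3 are 25.0% and the 1 is 8.33% of the 12, beside background shares of 6.47% and 7.23%. Cybb, the catalytic subunit, had 1350 and 2093 CPM, a ratio of 1.55 (1.52 to 1.58), which was 1.48 with total counts. Rac2, the small GTPase that activates the enzyme, had 263 and 518 CPM, a ratio of 1.97 (1.89 to 2.06), and Hvcn1, the proton channel that balances its charge, had 52.7 and 83.7 CPM, a ratio of 1.59 (1.44 to 1.75). Hvcn1 shares 44.2% of its exon bases with Tctn1 on the opposite strand, which had 94 and 122 reads. Ncf4, a cytosolic subunit, had 168 and 225 CPM, a ratio of 1.34 (1.27 to 1.42), and Maoa, a monoamine oxidase, 26.9 and 33.2 CPM, a ratio of 1.23 (1.07 to 1.42). The lower gene was the granule peroxidase Mpo, with 46 and 22 reads, which is also on the neutrophil marker list, where 4 of 11 were lower and none higher.

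Txnrd1, Txnrd2, Gpx1, Gpx3 and Gpx4 need selenium, and other selenoprotein genes were listed with the genes of selenocysteine synthesis. Of 22 such genes, 11 of them found under an older symbol, 20 were above the filter, with 2 higher, 1 lower and 17 neither (10% and 5.00%, beside 6.47% and 7.23% of all genes), and a median log2 ratio of -0.08. Dio2, a deiodinase that activates thyroid hormone, had 65.2 and 198 CPM, a ratio of 3.03 (2.81 to 3.29). Sepp1 (Selenop), the secreted selenium carrier, was 1.59-fold lower (1.56 to 1.62) at 1415 CPM in the KO library against 2245 in the WT library. Sepsecs, which makes selenocysteine on its tRNA, had 86 and 165 reads, a ratio of 1.502 (1.15 to 1.97), which was 1.43 with total counts. Pstk and Sephs2, which act in the same synthesis, had ratios of 0.767 (0.574 to 1.03) and 0.835 (0.768 to 0.907), neither past the limit.

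The haem and iron genes that NRF2 is known to regulate were close to level. None of 7 was counted in either direction, with Hmox1, haem oxygenase, at 972 and 1056 CPM, a ratio of 1.09 (1.06 to 1.11), and Blvrb, biliverdin reductase B, the furthest from 1 at 1.32 (1.23 to 1.42). The ferritin genes Ftl1 and Fth1 had ratios of 1.23 (1.22 to 1.24) and 1.11 (1.105 to 1.12).

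**Figure D4:**
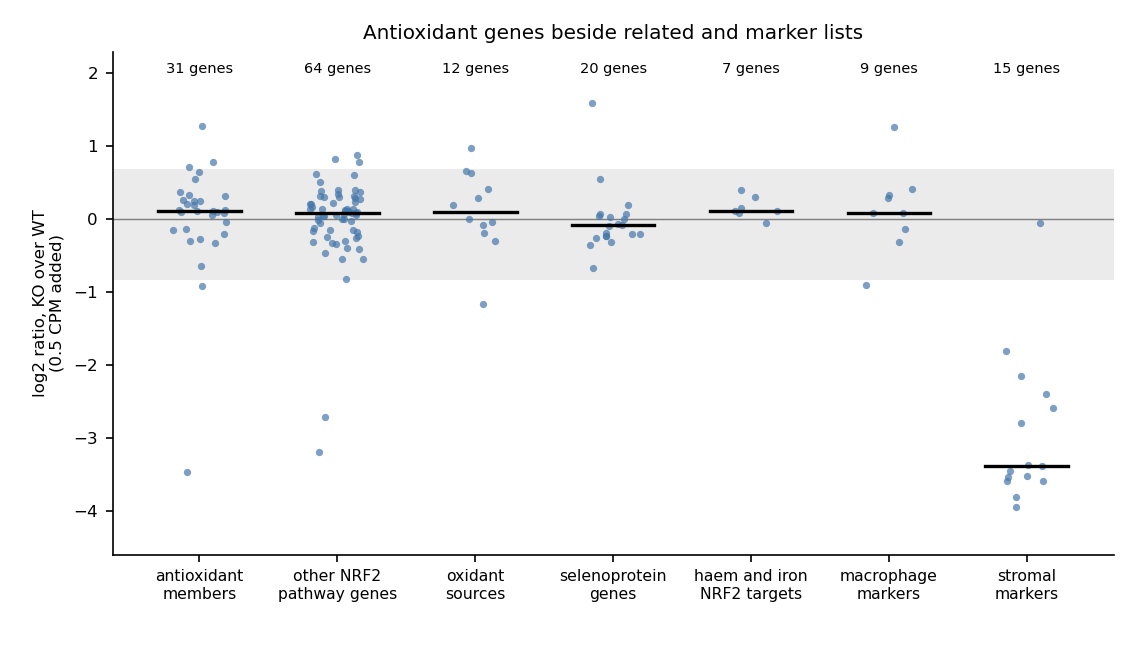
Log2 ratio of KO over WT, after adding 0.5 CPM, for each gene above the filter in 7 lists, with a black bar at each list's median. The grey band spans the 5th to the 95th percentile of all 12495 genes (-0.82 to 0.68) and the grey line is their median (0.01). The antioxidant members centre near the line, with Sod2, Srxn1 and Prdx1 above the band and Gpx3 and Sod3 below it, whereas the stromal markers other than Thy1 lie below it.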

How the data were processed

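RNA sequencing of 2 libraries was analysed, 1 per genotype, grouped by their titles. The deposited table gives raw read counts per gene symbol, per the file headers, with no row lacking a gene name. HISAT2 and the assembly GRCm38 are named without versions, per the submitters' processing notes. How reads were counted (program, annotation, strand, filters) is not given in the sources used here.

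From these counts, TMM library sizes were computed with edgeR 4.0.16 in R 4.3.3, and ratios with Clopper-Pearson intervals with scipy 1.17.1. Reads copied by PCR are not independent molecules, so intervals can be too narrow, and they cover counting error only. A count of 3 equals 0.248 CPM (WT) and 0.194 CPM (KO). Genes averaging 1 CPM or more were used, 12495 in all. With 1 library per group no test was possible. All 32 members were reported. From the lists of other NRF2 pathway, oxidant source and selenoprotein genes the text names the 5 genes furthest from a log2 ratio of 0 among those averaging 5 CPM or more. Members and lists were chosen with earlier results of these data known. Alternatives were total counts, DESeq2 1.42.0 size factors, TMM without stromal markers, other filters, limits and added CPM. The calculation was tested on data simulated with counting error only and with changes larger than the 1.5-fold limit. That setting holds no spread between cultures and no PCR copies, so neither was tested. Promoter windows and gene positions came from RefSeq (GRCm38.p6), exon lengths from GENCODE vM21. Genes with close copies (Prdx1, Txn1, Gpx4, Sod1 and the Gstm and Gstp families), and Txnrd2, are uncertain, since shared reads may be lost or split.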

Additional observations from a re-analysis of the deposited data

How the results depend on the processing

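No paired analysis was possible because the 2 groups had a single library each. With total counts, which shift every log2 ratio by -0.07 against TMM scaling, 3 members were higher in place of 5 (Gss and Txnrd1 fell short of the limit), and 2 were lower, against 5.21% and 8.49% of all genes, while Nfe2l1 and Sepsecs also fell short. At a 2-fold limit 1 member was higher and 1 lower, and of the other NRF2 pathway genes 1 was higher, against 2.59% and 4.78% of all genes. When the bound of the interval nearest to 1 was required to be 1.5-fold or more, 2 of those other genes were higher, against 2.86% of all genes. Without a filter 5 of 73 were lower, against 6.02% of all genes. Of the 42 with a mean of at least 10 CPM, 3 were higher and 0 lower, against 4.92% and 2.66%. The median log2 ratio of the members was 0.05 with total counts, when that of all genes was -0.06, and the mean over members was 0.02, pulled down by Sod3, against -0.03 over all genes. DESeq2 size factors and TMM without stromal markers changed no count of members. Of 35 recomputed list values 27 stayed within 1.5 times (counts) or within 0.104 log2 (medians). Of 141 recomputed gene ratios 128 stayed within the gene's counting interval, 13 left it, all with total counts, and 0 of the counted genes changed direction. Members with few reads (Gss, Nqo1, Me1, Gstp1 and Txnrd2) have wide intervals, and smaller differences in them could not be seen at this depth.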
